A study of Homo sapiens with 12 samples.

Results

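Intermediate filaments are the cytoskeletal polymers that give a cell its resistance to stretch, and each cell type builds them from its own set of subunits. Vimentin, encoded by VIM, marks mesenchymal and most cultured cells, nestin (NES) marks neural and other progenitors, and keratins 8, 18 and 19 (KRT8, KRT18, KRT19) pair up in simple epithelia. Neurons use the neurofilament light, medium and heavy chains (NEFL, NEFM, NEFH) with alpha-internexin (INA), and lamin A/C (LMNA) is the nuclear member of the family that lines the inner nuclear membrane.

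The 10 genes named above were followed through every expression table of the series, which together list 35651 genes. They were chosen by name, and the choice rested on NEFL, which had been selected on its values in the knockout and wildtype cells described next. The contrast between those genotypes is therefore given as a description, with no test. Of the 10 genes, 9 were listed in at least 1 table. KRT19 was listed in none, and NEFH was listed only in the CEL-seq2 libraries of single cells.

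The series compares ways of sequencing the RNA of single cells. LAST-seq copies RNA by in vitro transcription without prior reverse transcription, CEL-seq2 transcribes after making double-stranded cDNA, and SMART-seq V4 amplifies cDNA by PCR. HEK293T cells, a human embryonic kidney line carrying the SV40 large T antigen, gave 2 LAST-seq and 2 CEL-seq2 libraries of 10 pooled, indexed cells, 1 library of 10 lysate aliquots by each of these methods, and 1 LAST-seq library of 10 aliquots of 15 pg total RNA. The SMART-seq V4 tables analysed here held 6 single cells and lysate aliquots in 2 samples of 10 and 16 wells. By the labels, the added spike-in RNA differed between libraries. The first LAST-seq library of cells had the A60 mix and the second the ERCC mix. The first CEL-seq2 library of cells had both mixes and the second ERCC alone. The LAST-seq lysate and the first SMART-seq lysate sample had A60, and the second SMART-seq lysate sample ERCC.

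The other line was eHAP1, a human line with a single copy of each chromosome. Wildtype (WT) cells and cells in which SCC4 was knocked out with Cas9 (SCC4KO, below KO) were sequenced by LAST-seq in pools of 80, in 2 batches each. SCC4, now named MAU2, is a subunit of the complex that loads cohesin onto DNA. Cells had been sorted as live, haploid and in G1. Each genotype was 1 sample, so that the 2 batches, and not independent cultures, give the only measure of spread within a genotype. The study describes growing knockout clones from single edited cells. A difference between clones cannot be told apart here from one between genotypes.

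In UMIs, which count RNA molecules, the HEK293T wells held between 62816 and 195438, and the SMART-seq wells between 747676 and 818813 reads. WT cells had medians of 89978 and 143882 UMIs in batches 1 and 2, and KO cells 81789 and 152433. The range in WT batch 2 ran from 18022 to 926415, where 1 cell held 7.53% of all UMIs of the batch. Between 70 and 75 well barcodes recurred in any 2 of the 4 eHAP1 batches, which shared 1 set of indexes. The targeted gene, MAU2, went from 4.42 and 4.12 UMIs per 100000 in WT to 0.917 and 1.45 in KO, so the genotype labels and the transcript went the same way, although 33 of 77 and 70 of 76 KO cells still held a MAU2 UMI.

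The deposited eHAP1 values had a gap. Among genes with at least 10 cells at 1 UMI and at least 5 cells at 3 or more, between 38.1% and 66.2% had no cell at exactly 2 UMIs, depending on the batch. In every eHAP1 batch fewer values stood at 2 than at 3, with ratios of 0.509 to 0.978, while the 7 HEK293T libraries had 1.39 to 1.64 values at 2 for each at 3. The study names a batch correction of the eHAP1 counts by ComBat-seq, and whether the deposited table precedes that step is not stated. ComBat-seq leaves counts of 0 and 1 as they are, so a share of cells with at least 1 UMI would not depend on it, but sums per batch could, and the likeness of the 2 batches of a genotype could have been set by it. Its part in the values below was not tested.

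The neurofilament light chain was the member with the widest difference between genotypes. NEFL had 0 UMIs in the 73 and 75 WT cells of batches 1 and 2, against 51 UMIs in the 77 and 169 UMIs in the 76 KO cells. Scaled to all UMIs, the KO level was 0.793 per 100000 in batch 1, with an exact 95% counting interval of 0.590 to 1.04, and 1.45 in batch 2, with an interval of 1.24 to 1.68. A count of 0 over all WT cells allows up to 3 UMIs, and the NEFL level in KO was 79.6-fold above that limit. Within batches it was 19.5-fold and 59.3-fold above. These folds take the KO level as measured and leave out its counting error.

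**Figure D1:**
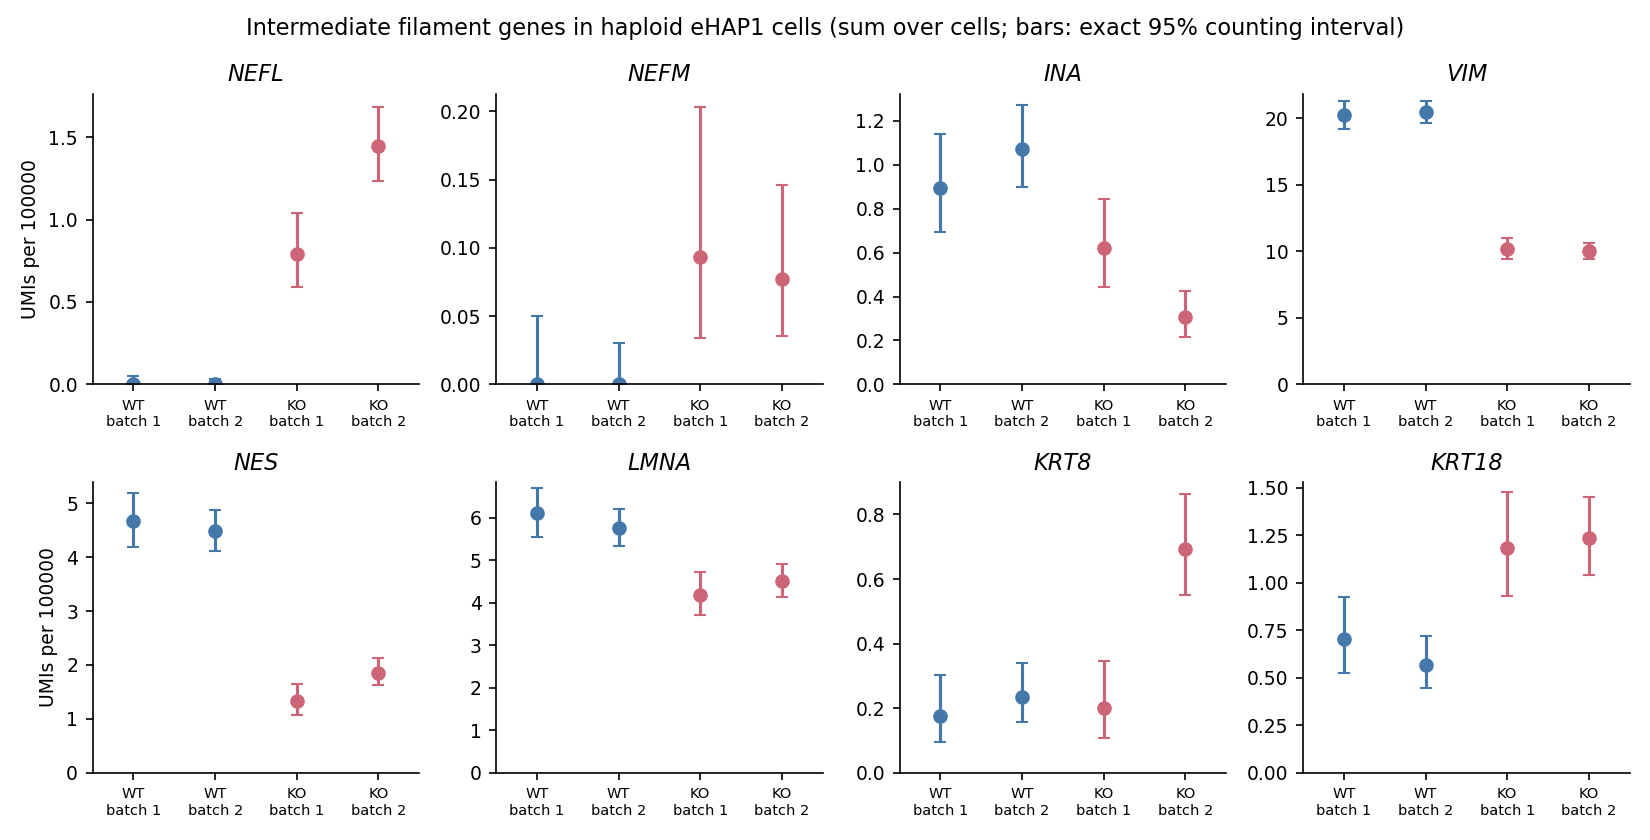
Level of 8 intermediate filament genes in WT (blue) and SCC4 KO (red) eHAP1 cells, as UMIs per 100000 summed over the cells of each batch, on axes that start at 0. Bars are exact 95% intervals for counting error only. NEFL and NEFM sit at 0 in both WT batches, VIM lies near 20 per 100000 in WT and near 10 in KO, and KRT8 separates KO batch 2 from the other batches.

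Across the whole table of 23939 genes, a gene was called when KO and WT differed by more than 2-fold in the same direction in both batches, after adding 0.5 UMI to each sum. This rule called 13.7% of genes higher and 14.4% lower in KO. Among the 8 members listed in eHAP1, NEFL and NEFM were called higher and NES lower. The other 5, VIM, INA, LMNA, KRT8 and KRT18, did not pass in both batches. Since the members were taken up because of NEFL, these counts carry no weight of their own.

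The share of KO cells with a NEFL UMI differed between batches. It was 34 of 77 cells (44.2%, exact 95% interval 32.8 to 55.9%) in batch 1 and 68 of 76 (89.5%, 80.3 to 95.3%) in batch 2, where cells were sequenced more deeply. In WT no cell of 73 and none of 75 had one, which allows shares of up to 4.11% and 4.0%. When each cell was thinned to 50000 UMIs, which left out 1 and 2 shallower WT cells and 1 KO cell of batch 1, the shares were 26.3% (16.9 to 37.7%) and 52.6% (40.8 to 64.2%). The intervals of the 2 KO batches did not overlap at either depth, and in both batches they lay above the WT limits.

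Counts per cell were low. In KO batch 1, 43 cells had no NEFL UMI, 27 had 1, none had 2, 5 had 3 and 2 had 4 or more. In KO batch 2 the cells spread over 0 (8 cells), 1 (18), 2 (19), 3 (20) and 4 or more (11), with a maximum of 6. The numbers of cells with a UMI, 34 and 68, were close to the 36.8 and 66.8 that sampling alone would give if each cell held NEFL at the mean level of its batch. That covers detection only. The variance of the counts over their mean was 1.57 in batch 1 and 0.955 in batch 2, where sampling at equal depth gives 1.

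**Figure D2:**
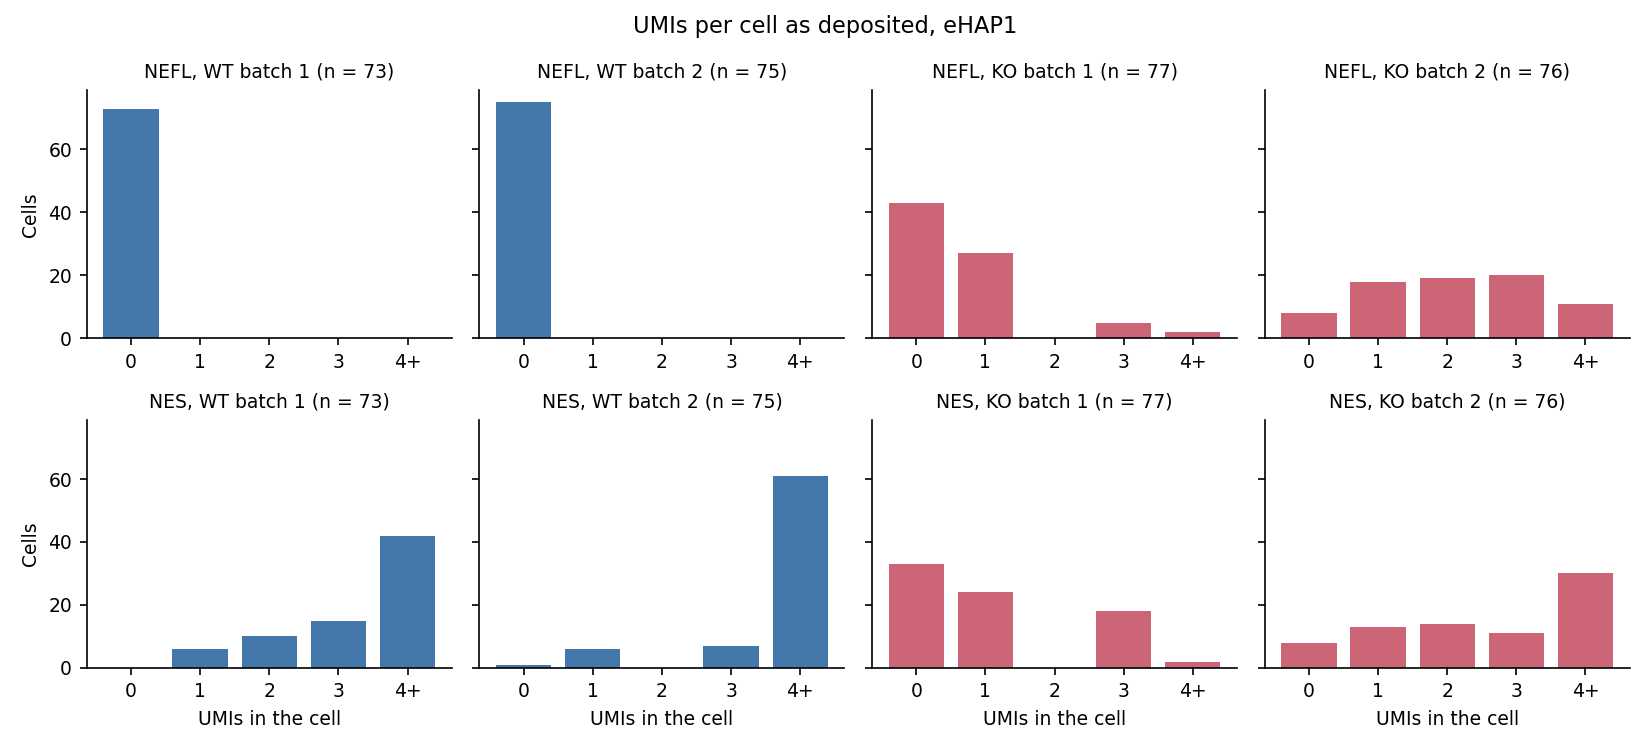
Number of eHAP1 cells (vertical axis) by the UMIs of NEFL or NES deposited for the cell (horizontal axis), for each genotype and batch, with n cells per panel. NEFL is at 0 in all WT cells, and no cell stands at 2 UMIs for NEFL in KO batch 1 or for NES in WT batch 2 and KO batch 1.

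NEFM, which encodes the medium chain that co-assembles with the light chain, is the nearest protein-coding neighbour of NEFL. The genes lie on opposite strands of chromosome 8 with 31856 bases between them and no protein-coding gene in the gap. NEFM had 0 UMIs in both WT batches, 6 UMIs in KO batch 1 and 9 in KO batch 2. These came from 2 of 77 and 8 of 76 cells, shares of 2.60% (0.316 to 9.07%) and 10.5% (4.66 to 19.7%). The KO level was 0.0828 per 100000 over both batches, 5.43-fold above the WT limit when its own counting error is left out. In batch 1 the KO interval began at 0.0342, below the WT limit of 0.0407. In batch 2 it began at 0.0352, above the WT limit of 0.0244. NEFM was called higher by the 2-fold rule. Its mean was below 0.1 UMI per cell in KO, so it left the comparison when such genes were removed.

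The few cells with NEFM are set beside the share of all cells with NEFL. In KO batch 1, 1 of the 2 NEFM cells also held NEFL, as did 34 of all 77 cells (44.2%). In KO batch 2, all 8 NEFM cells also held NEFL, as did 68 of all 76 cells (89.5%). NEFL stood at 1.66 per 100000 in the 8 cells with NEFM and at 1.42 in the other cells of that batch. Against residual MAU2, the NEFL level was 0.810 and 0.778 per 100000 in batch 1 cells with and without a MAU2 UMI. In batch 2 it was 1.42 in the 70 cells with and 1.82 in the few without, and the difference was not tested.

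Other genes near NEFL did not share one direction. Of 13 genes listed for the interval around it, NEFL and NEFM included, 10 were in the eHAP1 tables. Of these, 5 were called higher and 1 lower (median log2 difference 1.23), where 13.7% and 14.4% of all genes were. Besides NEFL and NEFM the higher calls were ADAM7, ADAM28 and STC1, each with a mean below 1 UMI per cell in both genotypes. Among the 7 genes averaging 0.1 UMI or more, 2 were higher and 1 lower. Among the 4 averaging 1 UMI or more, 1 was higher, NEFL itself, and 1 lower. CDCA2, a mitotic chromosome protein, went from 2.71 and 3.18 per 100000 in WT to 1.13 and 0.831 in KO.

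NEFH, the heavy chain, was not listed in either eHAP1 table. INA, which joins the neurofilament triplet in neurons, had 66 and 132 UMIs in WT and 40 and 36 in KO. Per 100000 these were 0.895 and 1.07 in WT and 0.622 and 0.308 in KO, so KO was 1.43-fold lower in batch 1 and 3.45-fold lower in batch 2, and the batch 1 intervals of WT (0.693 to 1.14) and KO (0.444 to 0.847) overlapped. At 50000 UMIs per cell an INA UMI was found in 29.2% and 41.1% of WT cells and in 26.3% and 6.58% of KO cells. INA and NEFL thus differed in direction in the same KO batches.

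Wider neuronal genes were called in both directions. Of 30 on the list, 24 were in the eHAP1 tables, 5 called higher and 3 lower, with a median log2 difference of -0.02 against 0.04 over all genes. Several of these had only a few UMIs, and among the 9 that averaged 1 UMI or more the median was -0.49, against 0.03 over all genes at that level. DPYSL3, a collapsin response mediator of growth cones, was the one of the 9 that was called, at 0.570 and 0.602 per 100000 in WT and 3.15 and 2.80 in KO. Among 10 neuronal markers, DCX and GAP43 were at 0 in all eHAP1 batches and STMN2 had 0.0155 and 0.0171 per 100000 in KO. The summed level of the list, with NEFL, NEFM and INA left out, was 12.5 and 12.9 in WT and 9.06 and 9.04 in KO. Nearly all of it was 1 gene, ELAVL3, at 11.6 and 11.9 in WT and 8.30 and 8.37 in KO. TUBB3 went the same way, from 0.556 and 0.602 to 0.280 and 0.325. MAP2 went the other way, from 0.244 and 0.301 to 0.466 and 0.325.

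VIM, found in every cell, had 1489 and 2515 UMIs in WT batches 1 and 2 and 655 and 1167 in KO. The level was 20.2 (19.2 to 21.3) and 20.4 (19.7 to 21.3) per 100000 in WT and 10.2 (9.42 to 11) and 9.99 (9.43 to 10.6) in KO. WT and KO did not overlap, and KO was 1.98-fold and 2.05-fold lower, so that batch 1 fell just short of the 2-fold limit. In batch 2 alone VIM was past the limit. The 8 mesenchymal markers, with VIM left out, summed to 7.19 and 6.89 per 100000 in WT and 9.36 and 11 in KO, the other way from VIM. The markers did not share that direction. CDH2 went from 2.04 and 1.52 in WT to 5.77 and 5.24 in KO, and COL1A1 was also higher in both KO batches. ZEB1 went the same way as VIM, from 3.38 and 3.62 to 1.73 and 2.18. Their part in the result was not tested.

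NES was the member called lower in KO. It had 344 and 552 UMIs in WT and 86 and 217 in KO, levels of 4.67 and 4.49 against 1.34 and 1.86 per 100000. KO was 3.48-fold and 2.41-fold lower. A NES UMI was found in 73 of 73 and 74 of 75 WT cells, and in 44 of 77 (57.1%) and 68 of 76 (89.5%) KO cells. At 50000 UMIs per cell the shares were 90.3% and 82.2% in WT and 48.7% and 65.8% in KO. NEFL and NES were found together in 19 KO cells of batch 1 and 61 of batch 2, and NEFL had like levels in cells with and without NES (0.809 and 0.768 per 100000, then 1.45 and 1.42).

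The 250 bases before the RefSeq start of VIM, NES and INA are shown, since these were the cytoplasmic members with lower sums in both KO batches (GRCh38.p14). Each reads 5′ to 3′ on the strand of the gene, and capitals mark the letters GGGCGG, the core of a GC box, or their reverse complement. VIM lies on the plus strand of chromosome 10 (window chr10:17227991-17228240), NES on the minus strand of chromosome 1 (chr1:156677408-156677657) and INA on the plus strand of chromosome 10 (chr10:103276888-103277137).
VIM: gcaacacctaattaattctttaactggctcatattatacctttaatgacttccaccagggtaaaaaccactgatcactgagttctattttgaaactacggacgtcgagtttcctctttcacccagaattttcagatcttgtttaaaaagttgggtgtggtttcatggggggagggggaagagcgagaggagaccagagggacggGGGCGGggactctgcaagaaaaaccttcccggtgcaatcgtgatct
NES: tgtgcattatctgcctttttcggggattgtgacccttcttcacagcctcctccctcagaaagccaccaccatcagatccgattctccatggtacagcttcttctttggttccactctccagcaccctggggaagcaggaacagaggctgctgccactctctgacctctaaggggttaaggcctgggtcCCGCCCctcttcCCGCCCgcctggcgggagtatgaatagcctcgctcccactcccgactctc
INA: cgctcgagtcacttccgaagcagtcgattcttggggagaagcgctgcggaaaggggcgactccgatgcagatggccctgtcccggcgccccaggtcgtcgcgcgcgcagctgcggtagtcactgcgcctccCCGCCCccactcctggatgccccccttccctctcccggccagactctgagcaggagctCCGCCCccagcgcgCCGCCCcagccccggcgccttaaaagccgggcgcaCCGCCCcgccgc
The VIM window held 1 GC box, that of NES 2 and that of INA 4, while 42.6% of 35116 such windows held at least 1. No match to CCAAT (32.0% of windows), TATAAA (10.7%) or TGANTCA (6.57%) was found in the 3 windows on either strand. G and C made up 46.0%, 58.0% and 72.8% of the bases. Before the KRT8 start no GC box was found, and before the 3 LMNA starts 1, 1 and 2 were. These are matches of letters and say nothing of a factor. INA overlaps NT5C2 and VIM overlaps VIM-AS1 on the other strand, and whether the counting used strand was not stated.

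Genes linked to vimentin and nestin were called in both directions. Among 24 mesenchymal genes, 17 were listed, 7 called higher and 3 lower, with a median log2 difference of 0.50 against 0.04 over all genes. Most of the higher calls rested on few UMIs, and among the 5 genes that averaged 1 UMI or more the median turned to -0.32, against 0.03 over all genes at that level. Of these 5, CDH2 and COL1A1 were called. CDH2, the neural cadherin, was at 2.04 and 1.52 per 100000 in WT and 5.77 and 5.24 in KO, and COL1A1, a fibrillar collagen chain, at 0.366 and 0.439 in WT and 1.2 and 1.63 in KO. Of 24 genes that link or modify filaments 22 were listed, none called higher and 2 lower (median -0.17), among them MACF1, a spectraplakin that ties filaments to microtubules and actin, at 12.7 and 13 in WT and 4.71 and 4.18 in KO. Of 27 other filament subunits 9 were listed, with 1 called higher and 1 lower (median 0.23), neither with a mean of 1 UMI per cell. Among the 4 that averaged 1 UMI or more the median was -0.38.

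Both epithelial keratins listed had larger sums in KO, but not evenly over batches. KRT8 had 13 and 29 UMIs in WT and 13 and 81 in KO, levels of 0.176, 0.236, 0.202 and 0.694 per 100000. Only KO batch 2 stood apart, at 2.91-fold above WT batch 2, against 1.1-fold in batch 1. At 50000 UMIs per cell a KRT8 UMI was found in 8.33% and 8.22% of WT cells and in 10.5% and 32.9% of KO cells.

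KRT18, the partner of KRT8, had 52 and 70 UMIs in WT and 76 and 144 in KO, or 0.706, 0.569, 1.18 and 1.23 per 100000. KO was 1.67-fold and 2.16-fold higher and did not overlap WT. This value is uncertain, because GENCODE names 68 pseudogenes of KRT18, 14 of which held 151 and 75 UMIs in the WT batches and 8 of which held 49 and 69 in the KO batches. With these added, the levels were 2.75 and 1.18 in WT and 1.94 and 1.82 in KO, and the genotypes overlapped. KRT8 and KRT18 also overlap each other on chromosome 12, KRT8 on the minus strand (chr12:52897187-52949954) and KRT18 on the plus strand (chr12:52948871-52952906).

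KRT8 and KRT18 UMIs did not go together cell by cell. In KO batch 2, KRT8 stood at 0.659 per 100000 in cells with KRT18 and at 0.836 in cells without. Of 20 epithelial genes 15 were listed, 3 called higher and 4 lower, where 13.7% and 14.4% of all genes were. Their median log2 difference was 0.35, against 0.04 over all genes. Among the 4 that averaged 1 UMI or more, 0 were higher and 1 lower. The median of these 4 was -0.09, against 0.03 over all genes at that level. GRHL1, a grainyhead transcription factor, was at 1.07 and 0.756 in WT and 0.155 and 0.274 in KO. The 8 epithelial markers, with the keratins left out, summed to 3.36 and 1.5 per 100000 in WT and 2.10 and 2.91 in KO, with overlap. No other gene at the KRT8 and KRT18 locus with a mean of 1 UMI was called, and 1 of the 9 listed, TNS2, was called lower from 3 and 2 UMIs in WT.

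LMNA, at 450 and 709 UMIs in WT and 270 and 528 in KO, had 6.11 and 5.76 per 100000 in WT and 4.2 and 4.52 in KO. KO was 1.45-fold and 1.27-fold lower, with no overlap between genotypes, and the gene was not called. It lies on the plus strand of chromosome 1 (chr1:156082573-156140081). Among 17 partners of the lamina, all listed (median log2 difference 0.09), SYNE2, a nesprin of the outer nuclear membrane, was the one called gene, at 0.868 and 0.789 in WT and 1.99 and 1.76 in KO. The other 16 stayed below 2-fold in at least 1 batch.

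**Figure D3:**
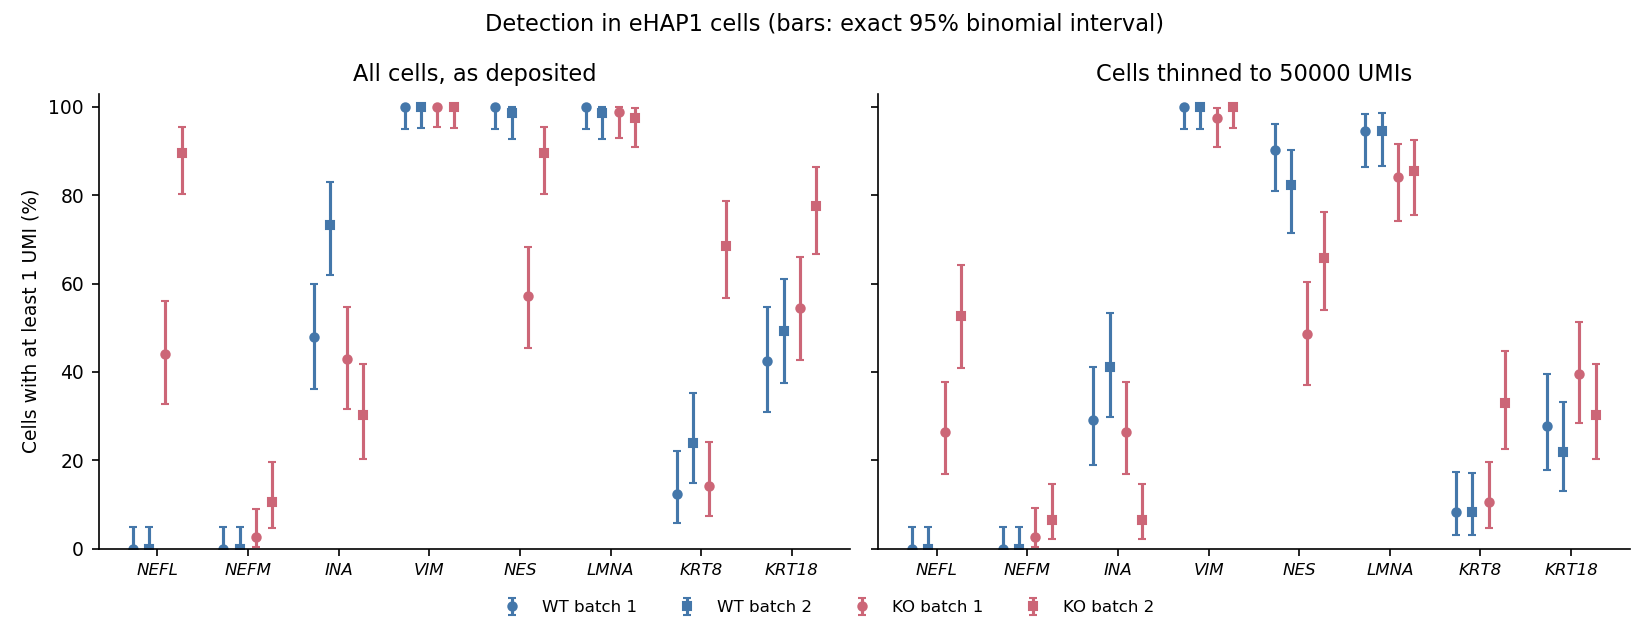
Percent of eHAP1 cells with at least 1 UMI of each gene, as deposited (left) and after thinning each cell to 50000 UMIs (right), in WT (blue) and SCC4 KO (red). Circles are batch 1, squares batch 2, and bars exact 95% binomial intervals for counting error only. NEFL goes from 0 in WT to 26.3% and 52.6% of thinned KO cells, and NES goes from 90.3% and 82.2% to 48.7% and 65.8%.

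The spread between cells was set beside that of genes with a like mean count. The coefficient of variation of UMIs per 100000 for VIM was 0.276 and 0.226 in WT and 0.402 and 0.348 in KO, against medians of 0.262, 0.224, 0.378 and 0.296 over genes of like mean in WT batches 1 and 2 and KO batches 1 and 2. On this scale VIM lay above the median of such genes in every batch, at percentiles of 67.5, 53.6, 69.9 and 91.8. On UMIs as deposited it lay below the median in both WT batches, at 0.521 against 0.532 and 0.753 against 0.760. In both KO batches it lay above on that scale too. For NEFL in KO the value was 1.55 in batch 1 and 0.640 in batch 2, against 1.46 and 0.763 for genes of like mean, above in one batch and below in the other.

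Members were not tied to each other across cells. Over all pairs of listed members, Spearman correlations of UMIs per cell total had medians of 0.03, 0.03, 0.00 and 0.03 in the 4 batches and ran from -0.29 to 0.33. The farthest values were 0.33 between NEFL and LMNA in KO batch 1 (n = 77) and -0.29 between NEFL and INA in KO batch 2 (n = 76). In sparse counts such values are a description of these cells. Of 9048 genes averaging 1 UMI or more in KO, those whose cell pattern was most like that of NEFL by mean Spearman correlation over the 2 batches of 77 and 76 cells were SYNJ2BP (0.29), IGFBP2 (0.29), QRSL1 (0.28), PIGQ (0.28) and SLC5A3 (0.27). For 3 of them the batches differed, with 0.15 and 0.43 for SYNJ2BP, 0.44 and 0.12 for QRSL1, and 0.40 and 0.14 for SLC5A3. IGFBP2 had 0.23 and 0.34, and PIGQ 0.28 and 0.27. They are the highest of 9048 values, and how high the top would stand with no link to NEFL was not tested. All cells of a batch share 1 library, and depth enters both genes of a pair.

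NEFL was not confined to knockout cells in the series, since every HEK293T table listed it. In the 10 cells of the first LAST-seq library it had 1, 9, 4, 1, 9, 1, 2, 7, 3 and 5 UMIs, and in the second 3, 0, 1, 1, 4, 2, 2, 0, 0 and 2. A UMI was thus found in 17 of 20 cells, at 2.95 and 0.994 per 100000. The CEL-seq2 cells had 66, 11, 5, 2, 5, 1, 3, 3, 2 and 20 UMIs in the first library and 0, 1, 12, 1, 2, 0, 0, 4, 0 and 2 in the second, or 16 of 20 cells. One CEL-seq2 cell stood far above the rest, at 44.3 per 100000 against 3.70 over the other 9 cells of its library, and held 55.9% of the NEFL UMIs there.

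The same cell held 15 of the 16 NEFM UMIs and both NEFH UMIs of its library. The light, medium and heavy chains thus coincided in 1 of the 10 cells of that library, at counts of 66, 15 and 2. Its VIM level, 53.0 per 100000, was within the range of the library's other cells, and its total of 149060 UMIs was not high. The second CEL-seq2 library had NEFM in 2 cells, both of which also held NEFL, and NEFH in 6 cells with 1 UMI each. The neuronal markers were read in the LAST-seq libraries of HEK293T cells, not in this cell. There 3 of 10 had a UMI in each library, and with NEFL, NEFM and INA left out the list summed to 4.35 and 5.23 per 100000, nearly all of it ELAVL3, at 4.35 and 5.17. TUBB3, STMN2, DCX, GAP43 and MAP2 were at 0.

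NEFM set cells and bulk RNA of HEK293T apart. In LAST-seq it had 0 UMIs in all 20 cells, among 2934671 UMIs. Yet the 10 aliquots of 15 pg total RNA held 2, 2, 0, 5, 3, 3, 0, 4, 1 and 1 NEFM UMIs, and the 10 lysate aliquots 2, 0, 3, 2, 1, 5, 2, 7, 2 and 1. The levels, 1.89 and 3.13 per 100000, were 18.5-fold and 30.6-fold above the limit of 3 UMIs over both cell libraries, their own counting error left out. Of the 4222 genes with at least 20 UMIs in both the lysate and the RNA library, NEFM was the only one with 0 in both libraries of cells (0.0237%). It was found by looking for such genes after its values were seen.

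CEL-seq2 gave the same order. NEFM had 16 and 3 UMIs in the 2 libraries of cells and 73 in the lysate, where its 10 aliquots held between 2 and 16, so the lysate level of 8.63 per 100000 stood against 1.03 and 0.206 in cells. In SMART-seq V4, NEFM had 0 reads in all 6 cells and between 5 and 54 reads in 10 of 10 wells of the first lysate sample. In the second lysate sample it had reads in 8 of 16 wells. Of these 16, 6 matched the 6 single cells to within about the sampling noise, with a mean squared difference over the sum of 0.94 to 1.0 where noise alone gives about 1, and were counted as the same wells. NEFM was absent from those 6 and was found in 8 of the remaining 10, at 0 to 33 reads. In the first lysate sample 3 pairs of wells were also near repeats, at 1.03 to 1.2, and 7 of 7 distinct wells held NEFM.

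**Figure D4:**
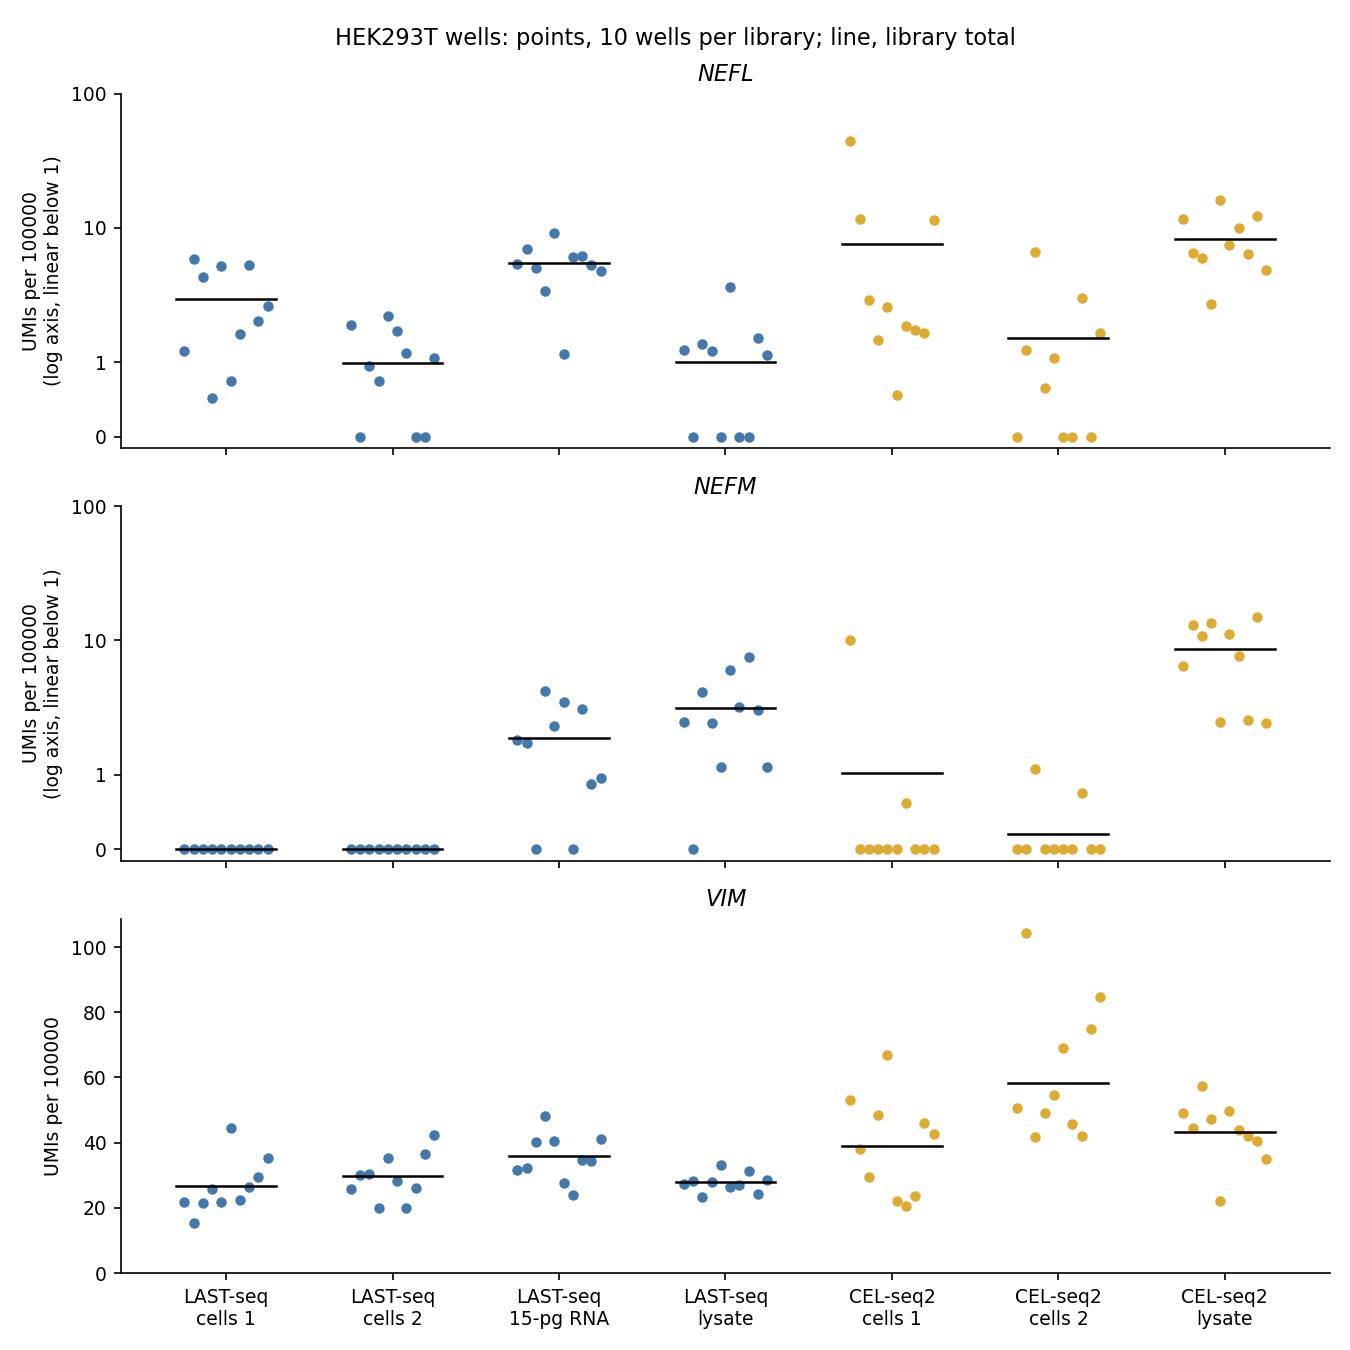
UMIs per 100000 of NEFL, NEFM and VIM in each of the 10 wells (points) of 7 HEK293T libraries by LAST-seq (blue) and CEL-seq2 (yellow), with the level of the whole library as a line; the upper panels have a log axis that is linear below 1. NEFM is at 0 in all 20 LAST-seq cells and present in most RNA and lysate wells, and VIM is found in every well.

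No other member was at 0 in all LAST-seq cells and present in both the lysate and the RNA. VIM in LAST-seq was at 26.9 and 29.9 per 100000 in cells, 27.9 in lysate and 35.8 in RNA, and in CEL-seq2 at 39.1 and 58.5 in cells and 43.3 in lysate. NEFL in LAST-seq was at 1.0 in lysate, between the levels of 2.95 and 0.994 in cells, and at 5.50 in RNA, above both. By SMART-seq NEFL was found in 2 of 6 cells, at 1.18 reads per 100000, and in 10 of 10 wells of the first lysate sample, at 3.41. KRT18 by CEL-seq2 was at 4.49 in lysate, above the 1.99 and 2.40 in cells, while by LAST-seq its lysate level of 1.0 lay within the range of the cells. LMNA was at 3.30 and 1.79 in cells, 1.63 in lysate and 3.70 in RNA. With 1 library of each input the differences have no replicate check, and fewer cells with a transcript and less transcript per cell cannot be told apart in a lysate.

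LAST-seq and CEL-seq2 were compared on the cell libraries, 2 against 2, by edgeR's quasi-likelihood test on sums over the 10 cells. Of 11271 genes tested, 11.3% were higher and 14.8% lower in LAST-seq at an adjusted p under 0.05 by the Benjamini-Hochberg method. None of the 4 members tested passed, and 0 of 4 had an unadjusted p under 0.05. DESeq2 called 0 of 6 members, and 1 of them, NEFM, had an unadjusted p under 0.05. The p-values measure only the spread between these libraries, which are not stated to come from separate cultures. The 2 libraries of each method also differed in spike-in mix, which cannot be told apart from that spread.

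NEFL had a log2 difference of LAST-seq over CEL-seq2 of -0.82 ± 0.70 (SE, adjusted p = 0.424 by edgeR), from 42 and 15 UMIs against 118 and 22. That value hung on single libraries. Without the first CEL-seq2 library it turned to 0.61, without the second it was -1.51 (adjusted p = 0.0270), without the first LAST-seq library -1.83 and without the second -0.18. Without the CEL-seq2 cell that held 66 UMIs it was -0.05.

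VIM differed by -0.49 ± 0.33 (SE, adjusted p = 0.303 by edgeR), from 383 and 451 UMIs against 607 and 851, and fell by 0.83 on the log2 scale (adjusted p = 0.00568) without the first CEL-seq2 library and by 0.04 without the second. KRT18 was at -0.60 ± 0.54 (SE, adjusted p = 0.442), from 19 and 15 UMIs against 31 and 35. LMNA was at 0.32 ± 0.55 (SE, adjusted p = 0.711), from 47 and 27 UMIs against 60 and 20, and turned to -0.21 without the first LAST-seq and to -0.17 without the second CEL-seq2 library. Within 2 standard errors, differences of either sign and of 2-fold or more remain for NEFL, VIM, KRT18 and LMNA.

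NEFM was too low for the filter of that fit. Without the filter its log2 difference was -6.01 (adjusted p = 0.0157 by edgeR), and DESeq2 gave -5.23 (adjusted p = 0.135). The fitted size depends on the count that the tool adds to a group at 0, and 15 of the 19 CEL-seq2 UMIs came from 1 cell. KRT8 was found in 4 of 20 LAST-seq and 10 of 20 CEL-seq2 cells, with 4 and 16 UMIs. NES, with 0 UMIs in all LAST-seq libraries of HEK293T, had 5 in the 20 CEL-seq2 cells.

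SMART-seq V4 reads cover whole transcripts, so levels of different genes were set side by side per length. The length was that of all annotated exons of a gene together, which can exceed the transcripts present and then lowers the value. It was 8141 bases for LMNA, 5176 for VIM, 3940 for NEFL and 3069 for KRT18. In the 6 single cells VIM had 3.69 reads per kilobase of exon per 100000 reads, KRT18 2.02, LMNA 0.494 and NEFL 0.301. VIM was found in 6 of 6 cells with 147.0 reads at the median, KRT18 in 5, LMNA in 4 and NEFL in 2, at 18 and 40 reads. In the 7 distinct wells of the first lysate sample the same scale gave KRT18 3.43, VIM 3.31, NEFL 0.857, NEFM 0.680 and LMNA 0.448. VIM and KRT18 were close there, and over all 10 wells VIM was ahead, at 3.38 against 3.32. In the 10 distinct wells of the second lysate sample VIM was at 3.65, KRT18 2.80, NEFL 1.11, NEFM 0.398 and LMNA 0.274. Per kilobase, NEFL stood above LMNA in both lysate samples and below it in the single cells. The order depended on the length used. Not divided by length, LMNA was at 3.64 and NEFL at 3.38 reads per 100000 in the distinct wells of the first lysate sample. VIM was at 17.1 and KRT18 at 10.5 there. In the distinct wells of the second, NEFL was at 4.38 and LMNA at 2.23.

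HEK293T and WT eHAP1 cells differed in which members were found. The 2 sets also differed in pool size (10 against 80 cells), sequencing depth and sorting, and these cannot be told apart from the line. By LAST-seq, HEK293T cells had NEFL and no NES, and WT eHAP1 cells had NES and no NEFL. The measured NEFL level in HEK293T was 127-fold, and the measured NES level in WT 44.6-fold, above the limit of 3 UMIs over the group at 0. A gene was called here when the 2 HEK293T libraries and the 2 WT batches differed by more than 2-fold without overlap, which held for 18.9% of 24020 genes with HEK293T higher and 9.33% with HEK293T lower. Of 7 members listed, 1 was called higher (NEFL) and 2 lower (NES and INA, the latter at 0.351 and 0 per 100000 in HEK293T against 0.895 and 1.07). The value of NEFL in WT had chosen the gene, so its call is a description, and INA was not called by edgeR or DESeq2.

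VIM stood at 26.9 and 29.9 per 100000 in HEK293T and 20.2 and 20.4 in WT, 1.40-fold higher and not called. LMNA was 2.41-fold lower on average, at 3.30 and 1.79 against 6.11 and 5.76, but the closest libraries differed by 1.73-fold. It was called lower without the first HEK293T library, at a log2 difference of -1.70, after TMM scaling, at -1.52, and by edgeR and DESeq2, at -1.43 and -1.44. KRT18 and KRT8 stayed under 2-fold. Set against KO instead of WT, NEFL was not called, since 2.95 and 0.994 in HEK293T met 0.793 and 1.45 in KO, and VIM was called higher, at 10.2 and 9.99 in KO. NES remained above HEK293T in both KO batches, and INA was not called, since the first HEK293T library, at 0.351, lay between the KO batches at 0.622 and 0.308.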

How the data were processed

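Per the labels, single HEK293T and eHAP1 cells, lysate and total RNA were sequenced in 12 samples. The authors deposited count tables, UMI counts for LAST-seq and CEL-seq2 and read counts for SMART-seq V4. The study describes subsampling the reads of the methods to one depth and ComBat-seq on the eHAP1 counts. Whether the deposited tables include these steps is not stated. Reads had been demultiplexed (bcl2fastq 2.20, per the submitters' processing notes), trimmed with cutadapt and counted with zUMIs on GRCh38, and eHAP1 wells under 50000 exon reads or under 50% exon mapping had been removed.

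Ensembl identifiers were matched to GENCODE 44 symbols, for at least 99.5% of the genes in each table. Spike-ins were left out, and a gene not listed was taken as 0. UMIs were summed per library or batch and divided by all UMIs. Intervals are exact at 95% and, like the limit of 3 counts, cover counting error only. Folds against that limit use the measured level of the other group without its counting error. KO against WT and HEK293T against WT were called by 2-fold rules with 0.5 UMI added. LAST-seq and CEL-seq2 cells were compared with edgeR 4.0.16 (R 4.3.3, limma 3.58.1; TMM, filterByExpr, quasi-likelihood, Benjamini-Hochberg at 0.05), with DESeq2 1.42.0 as an alternative. Cells were thinned without replacement to 50000 UMIs. Python 3.11.15, numpy 2.4.6, scipy 1.17.1, pandas 2.3.3 and matplotlib 3.10.9 were used, and scripts were tested on simulated data. SMART-seq wells were taken as repeats where the mean squared difference of their reads over the sum was under 2, counting genes that had 20 or more reads in the pair, where sampling noise alone gives about 1.

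The 10 genes and all gene lists were chosen with earlier results of these data known. From the lists, at most 4 genes each were named, those past 2-fold in both batches averaging 1 UMI or more per cell in WT or KO. MAU2 was named as the check of the knockout, and the 5 genes most like NEFL by mean Spearman correlation over KO cells were named with it. Genes named outside this rule, such as ADAM7, ADAM28, STC1, TNS2 and STMN2, were chosen after their values were seen.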

Additional observations from a re-analysis of the deposited data

How the results depend on the processing

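Counts of called genes moved with the treatment of low counts. For KO against WT, 982 genes were higher and 664 lower with 5 UMIs added, 364 and 357 among genes averaging 1 UMI or more per cell, and 1213 and 1178 at 0.1 or more, where 1 member, NEFL, stayed higher under both limits. Without batch 1 or batch 2 the higher genes numbered 4663 to 5460 and the lower 4772 to 5542, with 2 to 4 members higher and 1 to 3 lower, since INA, VIM, KRT8 and KRT18 passed 2-fold in batch 2 alone. With batches taken as replicates, which is no test of these members since NEFL was chosen on the same values, edgeR gave 1999 higher genes, edgeR with batch as a replicate block 2165 and DESeq2 1968, each with 1 member past the limit higher and 3 lower (VIM, NES and LMNA). The labels give the genotypes no replicate numbers, and a shared batch number was not shown to pair them. For HEK293T against WT, 1486 genes were higher and 1253 lower when genes averaged 1 UMI or more, edgeR gave 1962 and DESeq2 1744 higher, and leaving out 1 library or batch gave 5181 to 7355 higher and 2793 to 3755 lower. For LAST-seq against CEL-seq2, leaving out 1 library gave 363 to 1435 higher and 598 to 1362 lower genes and 0 to 1 members lower. NEFM was the 1 member lower with no filter and in the fit over 7 libraries. On the log2 scale NEFL then ran from -1.83 to 0.61, turning without the first CEL-seq2 library, and LMNA from -0.21 to 1.11, turning to -0.21 without the first LAST-seq and -0.17 without the second CEL-seq2 library. KO cells with NEFL in batches 1 and 2 were 44.2% and 89.5% as deposited, 16.7% (of 12 cells) and 77.0% at 100000 UMIs, and 9.09% and 65.8% with at least 2 UMIs. The mean coefficient of variation of VIM, 0.251 in WT and 0.375 in KO, was 0.637 and 0.451 on UMIs as deposited. Leaving out the WT cell with the most UMIs and the CEL-seq2 cell with the most NEFL were chosen after seeing the data. The 2 eHAP1 batches, the gap at 2 UMIs and 10 cells per HEK293T library limit what these values can show.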
